A study of Mus musculus with 28 samples.

Results

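Sebum is made by sebaceous glands, which open into the upper part of the hair follicle next to the interfollicular epidermis (IFE), the stratified skin between follicles. The 10 genes described here, Pparg, Scd1, Far2, Awat2, Plin2, Cidea, Hsd3b6, Mgst1, Krt79 and Cst6, are genes of that gland and of the follicle's upper channel, out of 55536 gene identifiers counted in 28 RNA-seq libraries of mouse IFE. They were picked by name, by mapping the Ensembl identifiers of the count files to mouse symbols. Their levels in these same libraries were known when they were picked, so levels and differences of the 10 genes are given as description, with no test.

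The study compared basal lineages of IFE in mice labelled wild type that carry a tamoxifen-inducible Cre recombinase (CreER) and a tdTomato reporter at the Rosa locus. The CreER was Slc1a3CreER, AspmCreER, Dlx1CreER or K14CreER, and Cre acts only in cells that use the driver gene when tamoxifen is given, whose descendants then keep the reporter. All mice had tamoxifen (100 ug/ml) on 5 consecutive days within postnatal days 30 to 34, and the skin samples date from postnatal day 49, 2 weeks on, with follicles in telogen, the resting phase. Each line gave libraries of the cells positive for it (Slc1a3+, Aspm+, Dlx1+ or K14+, called labelled cells here, gate P6 in the titles) and of total IFE (gate P5). Back skin had 3 labelled and 3 total libraries of the Slc1a3 line, 3 and 3 of the Aspm line, and 2 and 2 of the K14 line. Tail skin had 2 and 2 of each of the Slc1a3, Aspm and Dlx1 lines, so the Dlx1 line was sampled only in the tail and the K14 line only in the back. The labels do not say whether numbered libraries came from separate or pooled animals, so the spread between them may be partly technical. Lines are different mice, and an effect of line cannot be told apart from one of the animals used.

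In GRCm38 (GENCODE M21 annotation), Pparg lies at chr6:115360951-115490399 on the plus strand, Mgst1 at chr6:138140316-138156755 (plus) and Far2 at chr6:148047259-148182758 (plus). Scd1 lies at chr19:44394455-44407879 (minus), Cst6 at chr19:5344705-5349574 (minus), Awat2 at chrX:100402221-100442717 (minus) and Plin2 at chr4:86648386-86670060 (minus). Cidea lies at chr18:67343604-67367785 (plus), Hsd3b6 at chr3:98805504-98814443 (minus) and Krt79 at chr15:101929332-101940324 (minus). All are protein-coding. The libraries are non-directional, so Far2, which overlaps Ergic2 on the opposite strand, may hold reads of that gene. Scd1 and Hsd3b6 belong to families of close copies, and how reads shared between copies were counted is not given in the sources used here.

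In sebocytes, the nuclear receptor PPAR-gamma (Pparg) drives maturation, and maturing cells fill with lipid droplets and then burst to release sebum. Sebum is rich in wax esters and triglycerides built from fatty acids that are desaturated (Scd1), reduced to fatty alcohols (Far2) and esterified (Awat2). Droplets are coated by perilipins (Plin2) and enlarged by CIDE proteins (Cidea), while Hsd3b6 converts steroid precursors and Mgst1 is a membrane-bound glutathione transferase. Krt79 is a keratin of the cells that line the follicle opening and the sebaceous duct, and Cst6 is an inhibitor of cysteine proteases that marks the upper follicle and differentiating epidermis. Scd1 and Plin2 are also used by many other cells, keratinocytes included.

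RefSeq's promoter table (build GRCm38.p6) held a window for 7 of the 10 genes. The 250 bases before the start of 3 of them are shown as examples of the patterns given below: all 3 genes were higher in tail than in back skin, Hsd3b6 also differed between mouse lines in both gates, Krt79 also between gates in the tail Slc1a3 and Dlx1 lines, and Plin2 little between lines. Each is written 5′ to 3′ on the minus strand, and capitals mark matches to the motifs named after the sequences.
Hsd3b6, chr3:98814444-98814693: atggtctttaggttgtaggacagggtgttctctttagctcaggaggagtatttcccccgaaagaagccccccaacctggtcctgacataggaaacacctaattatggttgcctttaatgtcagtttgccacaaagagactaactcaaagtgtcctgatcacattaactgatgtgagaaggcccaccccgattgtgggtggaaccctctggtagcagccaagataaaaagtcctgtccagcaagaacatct
Plin2, chr4:86670060-86670309: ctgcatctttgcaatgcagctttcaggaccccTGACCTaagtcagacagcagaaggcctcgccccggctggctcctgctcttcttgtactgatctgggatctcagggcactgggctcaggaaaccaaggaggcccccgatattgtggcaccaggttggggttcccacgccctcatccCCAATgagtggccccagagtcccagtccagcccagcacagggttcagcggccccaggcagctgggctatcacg
Krt79, chr15:101940325-101940574: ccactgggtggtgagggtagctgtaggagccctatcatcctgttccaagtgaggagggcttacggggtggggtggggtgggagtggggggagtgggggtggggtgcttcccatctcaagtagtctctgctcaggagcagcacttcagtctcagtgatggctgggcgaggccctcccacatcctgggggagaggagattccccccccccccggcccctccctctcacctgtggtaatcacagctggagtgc

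Both strands were searched for 6 motifs: the direct repeat with 1 spacer base (DR1) that is bound by PPAR with its partner RXR, the single receptor half-site it contains (AGGTCA), the CCAAT box (CCAAT), the GC box (GGGCGG), the TATA box (TATAAA) and a sterol element (TCACNCCAC). The Plin2 window holds 1 half-site, written on the opposite strand as TGACCT, and 1 CCAAT box. The Hsd3b6 and Krt79 windows hold no match to these letters. Of the 32851 windows of the same length in the table, 14.02% hold the half-site, 33.85% the CCAAT box, 32.74% the GC box, 12.37% the TATA box, 1.053% the sterol element and 0.03348% the full repeat, which none of the windows of the 7 genes holds. The windows differ in base composition, with 47.2% G and C for Hsd3b6, 61.6% for Plin2 and 64.0% for Krt79.

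Library totals ran from 7738262 to 37670589 counts (median 20193387). The lowest is the back Slc1a3 total replicate 4, which has a count for 14436 genes against 18375 to 22500 in the others and stands apart from the others. The summed level of 6 basal keratinocyte genes (Krt5, Krt14, Itga6, Itgb4, Col17a1, Trp63) was between 41910 and 116644 CPM, counts scaled to the library's size, in every library. Basal cells of the follicle and gland also use these genes, so they do not tell IFE from those, and genes of both were read in the same libraries. Summed levels of 8 adipocyte genes were 0.162 to 12.2 CPM in back and 0.431 to 2.91 CPM in tail libraries, and Adipoq, which defines adipocytes, had 0 counts in all 12 tail and 15 of 16 back libraries. Suprabasal keratinocyte genes summed to 6634 to 14742 CPM, and 4 endothelial genes to 0.0613 to 10.4 CPM. Levels below are CPM scaled by edgeR's trimmed mean of M values, with 3 counts worth 0.0854 to 0.383 CPM depending on the library; these limits cover counting error only. In these bulk libraries, fewer cells of a type and less RNA per cell cannot be told apart.

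The 10 genes were far from equal in level. Divided by the length of their annotated exons, mean levels in the 12 tail libraries ran from 90.9 CPM per kilobase for Scd1 through 52.2 for Krt79, 44.5 for Mgst1, 32.4 for Cst6 and 23.9 for Plin2 to 8.70 for Cidea, 7.78 for Far2 and 2.998 for Hsd3b6. Pparg (0.644) and Awat2 (0.345) were the lowest. In the 16 back libraries Scd1 again led with 48.5 CPM per kilobase, followed by Krt79 with 10.9, Plin2 with 8.05 and Cst6 with 5.72. Cidea (0.133), Pparg (0.101) and Hsd3b6 (0.0199) were the lowest there. Scd1 therefore stood first and Krt79 next at both sites.

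**Figure D1:**
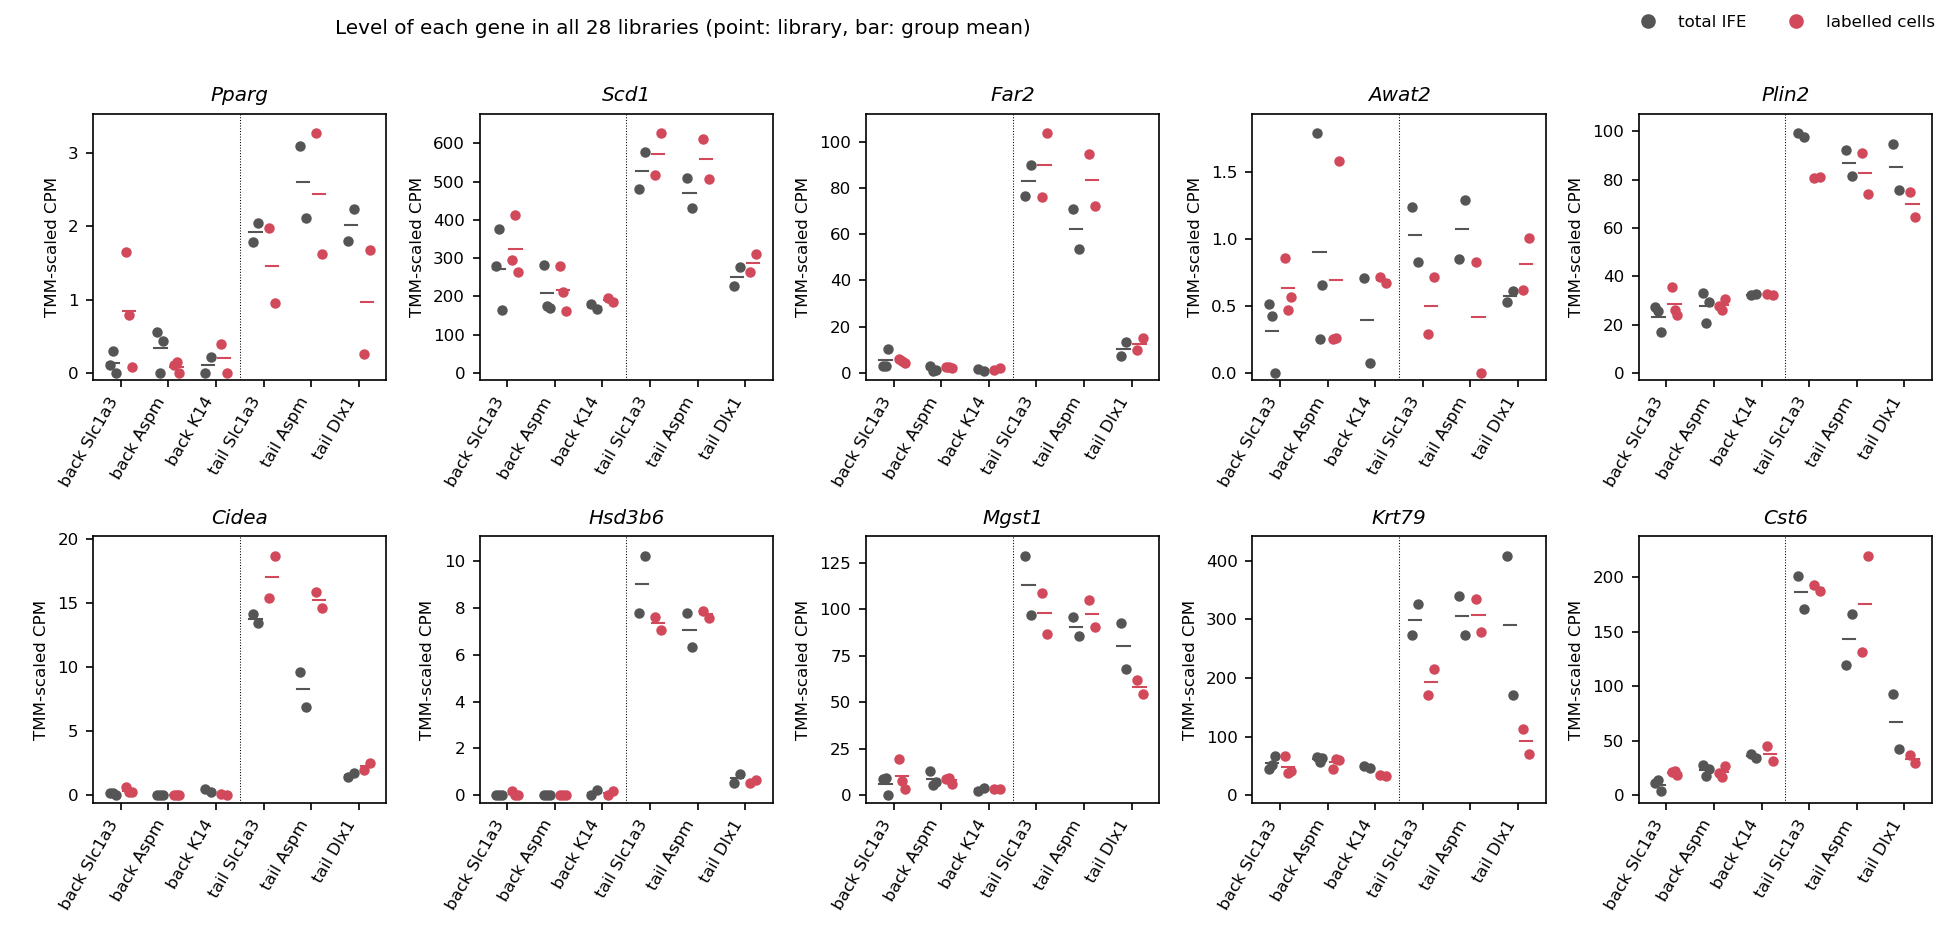
TMM-scaled CPM (vertical axes, linear, 1 panel per gene) of the 10 genes in all 28 libraries, by site and line; points are libraries, grey for total IFE and red for labelled cells, and short bars are group means. Tail points lie above all back points for Plin2, Cidea, Hsd3b6, Mgst1 and Krt79, and the 4 tail Dlx1 points lie below the other tail points for Scd1, Far2, Cidea, Hsd3b6 and Cst6.

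Mean levels were higher in tail than in back skin for the 10 genes, by little for Awat2. Every tail library was above every back library for 5 genes: Plin2, Cidea, Hsd3b6, Mgst1 and Krt79. The share of all genes that did so over all these libraries is not given here. In total IFE of the Slc1a3 and Aspm lines alone, 15.6% of all genes lay wholly higher in the tail. The ratio of the mean over tail libraries to the mean over back libraries spanned a wide range, from 1.20 for Awat2 and 1.88 for Scd1 to 65.6 for Cidea and 151 for Hsd3b6. Without the back library that stands apart, the ratio became 22.1 in place of 18.7 for Far2. That library had 0 counts of Pparg, Awat2, Cidea, Hsd3b6 and Mgst1. For these, leaving it out lowers the ratio by a fixed part (142 in place of 151 for Hsd3b6) and does not check it. The back mean of Hsd3b6 rests on few counts, with 0 in 13 of 16 libraries. Sites were sampled with partly different lines, but the Slc1a3 and Aspm lines were present at both.

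Pparg, the receptor that directs sebocyte maturation, was low throughout. It had a median of 0.123 CPM in back libraries (0 to 1.66, with 0 counts in 5 of 16) and 1.89 CPM in tail libraries (0.257 to 3.27, none at 0). The ranges overlapped: the 2 highest back libraries, both Slc1a3+ cells, had 1.66 and 0.793 CPM, and the lowest tail library, of Dlx1+ cells, had 0.257 CPM.

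Scd1, the desaturase that makes monounsaturated fatty acids, was abundant in all 28 libraries. Its back levels had a median of 203 CPM (163 to 412), with the Slc1a3 line higher (median 287) than the Aspm and K14 lines together (median 182). Its tail levels had a median of 493 CPM (227 to 627). The back range covers all 4 libraries of the tail Dlx1 line, which had 227 and 276 CPM in total IFE and 263 and 309.8 CPM in Dlx1+ cells.

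Far2, which reduces fatty acids to the alcohols of wax esters, had a median of 2.49 CPM in back (0.637 to 10.1) and 71.5 CPM in tail libraries (7.17 to 104). The highest back value belongs to the library that stands apart, and without it the back range ended at 5.77 CPM, below every tail library. Awat2, the acyltransferase that joins those alcohols to fatty acids, stayed between 0 and 1.79 CPM in all 28 libraries. Its medians were 0.541 CPM in back and 0.769 CPM in tail. In the tail, Awat2 was far below Far2, also per kilobase of exon (0.345 against 7.78 CPM).

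Plin2, the droplet coat protein found in most cells, differed by site with little spread within each. It had a median of 28.4 CPM in back (16.98 to 35.7) and 81.3 CPM in tail (64.7 to 99.3). Cidea, which fuses droplets into larger ones, had 0 counts in 8 of 16 back libraries and never exceeded 0.628 CPM there. All 6 back libraries of the Aspm line were among those at 0. In the tail it ranged from 1.41 to 18.7 CPM with a median of 11.5, so even the lowest tail library was above the highest back library.

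Hsd3b6, a 3-beta-hydroxysteroid dehydrogenase, was at 0 in 13 of 16 back libraries, and the other 3 held 3 counts each (0.171, 0.184 and 0.217 CPM). In the tail it ranged from 0.514 to 10.2 CPM with a median of 7.32. Total IFE of the Slc1a3 and Aspm lines had 0 counts in all 6 back libraries and a mean of 8.02 ± 1.62 CPM (SD, n = 4) in the tail, at least 46.2-fold higher when 3 counts per back library are taken as the floor. Mgst1, the glutathione transferase, had a median of 6.73 CPM in back (0 to 19.5, the 0 being the library that stands apart) and 91.5 CPM in tail (54.6 to 129). The tail levels of both genes lay wholly above the back levels.

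Krt79, the keratin of the follicle opening, had a median of 51.2 CPM in back (32.4 to 67.0) and 273 CPM in tail (71.2 to 409). Cst6, the protease inhibitor, had a median of 22.1 CPM in back (3.70 to 45.1) and 149 CPM in tail (29.4 to 219.7). Within the back, Cst6 was highest in the K14 line (31.1 to 45.1 CPM), above every back library of the Slc1a3 and Aspm lines (3.70 to 27.8 CPM), whereas Mgst1 was among its low back values there (2.40 to 3.99 CPM), with a Slc1a3+ library at 3.57 CPM and the library that stands apart at 0. For Scd1 the K14 line, at 167 to 197 CPM, lay within the range of the Aspm line.

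Markers of other cells were read at both sites with the same scaling. Summed levels of 8 sebocyte genes that are not among the 10 (among them Mc5r, Elovl3, Awat1, Scd3, Fabp5, Krt7 and Prdm1) were 51.7 to 85.1 CPM in back and 188 to 342 CPM in tail libraries. Those of 6 bulge and germ genes were 115 to 219 CPM and 285 to 423 CPM, and of 4 melanocyte genes 3.55 to 15.5 CPM and 7.42 to 28.1 CPM. Those of 4 immune genes were 10.5 to 99.7 CPM and 1.48 to 18.9 CPM, and of the 12 upper follicle genes 788 to 1559 CPM and 498 to 1718 CPM. Those of 6 fibroblast genes were 0.968 to 14.7 CPM and 21.9 to 39.2 CPM, with Dcn at 13.2 CPM or more in every tail library. Within the sebocyte sum, the fatty acid binding protein Fabp5 made up a large part in tail total IFE of the Slc1a3 and Aspm lines, so that sum leans on this gene. The part of these cell types in the site difference of the 10 genes was not tested.

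Between lines in the tail, lines did not overlap for 5 of the 10 genes with both gates pooled. The share of all genes for this pooling is not given here. Between the Slc1a3 and Dlx1 lines alone, 24.0% of all genes lay wholly higher in the Slc1a3 line in total IFE and 25.2% in labelled cells. Wholly lower were 28.5% and 29.4%. For Scd1, Far2, Cidea, Hsd3b6 and Cst6, every one of the 8 tail libraries of the Slc1a3 and Aspm lines was above every one of the 4 of the Dlx1 line, in labelled cells and in total IFE alike. The ratio of the means was 11.96 for Hsd3b6, 7.04 for Cidea, 6.9998 for Far2, 3.45 for Cst6 and 1.98 for Scd1. For the others it lay between 1.09 (Awat2) and 1.45 (Krt79), with ranges that overlapped once the gates were pooled. Within labelled cells alone, Krt79 (171 to 335 against 71.2 and 113 CPM) and Mgst1 (86.5 to 109 against 54.6 and 61.9 CPM) also lay wholly above Dlx1+ cells, and within total IFE alone Awat2 lay above the Dlx1 line. The 5 genes apart in both gates are a desaturase, the fatty alcohol enzyme, a droplet protein, the steroid enzyme and the protease inhibitor.

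Hsd3b6 had 7.78 and 10.2 CPM in total IFE of the Slc1a3 line, 7.77 and 6.32 CPM in that of the Aspm line, and 0.528 and 0.920 CPM in that of the Dlx1 line. In labelled cells it had 7.62 and 7.06 CPM (Slc1a3+), 7.86 and 7.59 CPM (Aspm+), and 0.514 and 0.639 CPM (Dlx1+). The Dlx1 line therefore held about as little Hsd3b6 in its total IFE as in its labelled cells, and the 4 Dlx1 libraries rested on 10 to 30 counts each.

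Cidea had 14.1 and 13.4 CPM in total IFE of the Slc1a3 line, 9.64 and 6.90 CPM in the Aspm line and 1.41 and 1.78 CPM in the Dlx1 line. In labelled cells the values were 15.4 and 18.7 CPM (Slc1a3+), 15.9 and 14.6 CPM (Aspm+) and 2.01 and 2.52 CPM (Dlx1+). Labelled cells were above their total IFE in all 3 tail lines, and the Dlx1 line was lowest in both gates.

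Far2 had 76.3 and 90.0 CPM in total IFE of the Slc1a3 line, 70.7 and 53.7 CPM in the Aspm line and 7.17 and 13.5 CPM in the Dlx1 line. In labelled cells it had 76.1 and 104 CPM (Slc1a3+), 94.7 and 72.3 CPM (Aspm+) and 9.67 and 15.1 CPM (Dlx1+). All 4 Dlx1 values were above the 5.77 CPM that was highest in the back without the library that stands apart.

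Scd1 had 480.1 and 577 CPM in total IFE of the Slc1a3 line, and 509.8 and 432 CPM in that of the Aspm line. In labelled cells it had 517 and 627 CPM (Slc1a3+) and 612 and 507 CPM (Aspm+). Its mean over the 4 Dlx1 libraries, 269 ± 34.3 CPM, was 1.13 times the mean over the 16 back libraries.

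The edgeR model gave the sizes of these differences on the log2 scale. For the Slc1a3 line against the Dlx1 line, log2 differences in total IFE were 3.62 (SE 0.90) for Hsd3b6, 3.10 (SE 0.53) for Cidea, 3.003 (SE 0.48) for Far2, 1.46 (SE 0.38) for Cst6 and 1.07 (SE 0.30) for Scd1. In labelled cells they were 3.65, 2.90, 2.85, 2.52 and 0.999. For Plin2 the difference was 0.21 (SE 0.22) in either gate, and for Mgst1 it was 0.49 in total IFE and 0.75 (SE 0.66 each) in labelled cells. Line differences of Cst6 and Krt79 were wider in labelled cells. For Krt79 it was 0.05 (SE 0.30) in total IFE and 1.07 (SE 0.30) in labelled cells, a change between gates that was not tested.

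**Figure D2:**
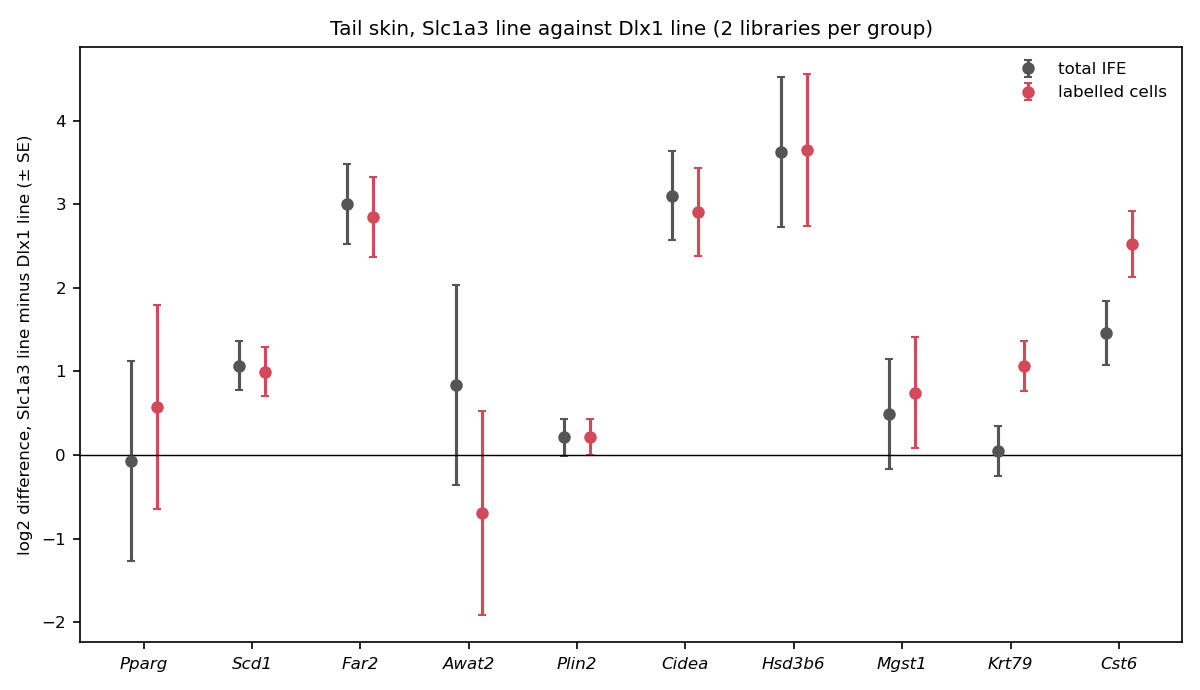
Log2 difference of the Slc1a3 line minus the Dlx1 line in tail skin (vertical axis) for the 10 genes, from the edgeR model; grey is total IFE, red is labelled cells, bars are standard errors, 2 libraries per group. Hsd3b6, Cidea, Far2, Cst6 and Scd1 lie between 0.999 and 3.65 in both gates, Plin2 at 0.21 in both, and Krt79 moves from 0.05 in total IFE to 1.07 in labelled cells.

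Marker levels beside this difference were as follows. The summed level of the 8 sebocyte genes was 262 to 342 CPM in the 8 tail libraries of the Slc1a3 and Aspm lines and 188 to 219 CPM in the 4 of the Dlx1 line, with no sebocyte gene at 0 in either. Elovl3, Awat1 and Mc5r, which are defining sebocyte genes, had medians of 29.7, 8.03 and 4.91 CPM in the former and 4.21, 0.778 and 1.22 CPM in the latter, whereas the duct keratin Krt7 had 48.8 and 64.6 CPM. The melanocyte genes summed to 15.7 to 28.1 CPM against 7.42 to 11.01 CPM, and the immune genes to 5.18 to 18.9 CPM against 1.48 to 5.25 CPM. Basal IFE genes summed to 74903 to 116644 CPM against 61482 to 84702 CPM, and adipocyte genes to 0.431 to 2.91 CPM against 0.720 to 2.85 CPM. Fibroblast genes summed to 22.4 to 39.2 CPM against 21.9 to 25.3 CPM, and bulge and germ genes to 293 to 423 CPM against 285 to 359.6 CPM. The part of sebocytes, or of any other cell type named here, in the line difference was not tested.

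Between gates, Scd1 and Plin2 differed little in the tail. Scd1 was higher in the labelled library in 12 of 14 pairs that share line, site and replicate number, including all 6 tail pairs, where the log2 ratio was 0.11 to 0.26. Cidea was higher in labelled cells in 6 of 6 tail pairs (0.13 to 1.08) and Far2 in 5 of 6 (-0.0043 to 0.43). Plin2 was lower in labelled cells in 6 of 6 tail pairs, with log2 ratios from -0.34 to -0.02. In back skin Cidea and Hsd3b6 held too few counts to compare gates, and Plin2 was higher in labelled cells in 6 of 8 pairs. The tail shift of Scd1 between gates, at most 0.26, is below the log2 line difference of 1.07 between total IFE of the Slc1a3 and Dlx1 lines.

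Krt79 was lower in the labelled library in 5 of 6 tail pairs. Log2 differences between gates and their SEs, here and for Cst6 below, are from the edgeR model, which leaves out the pairing by replicate number. Total IFE of the tail Dlx1 line had 409 and 171 CPM and Dlx1+ cells had 113 and 71.2 CPM, a log2 difference of -1.66 (SE 0.31). In the Slc1a3 line, total IFE had 273 and 326 CPM and Slc1a3+ cells 171 and 215 CPM, a log2 difference of -0.63 (SE 0.30). In the Aspm line, total IFE had 339.9 and 273 CPM and Aspm+ cells 335 and 279 CPM, a log2 difference of 0.00 (SE 0.30). The Dlx1 and Slc1a3 gates did not overlap with their totals and the Aspm gates did. In the back, Krt79 was lower in the labelled library in 6 of 8 pairs, and K14+ cells had 34.5 and 32.4 CPM against 49.96 and 46.2 CPM in their total IFE.

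For Cst6, total IFE of the Dlx1 line had 93.1 and 42.2 CPM and Dlx1+ cells 36.9 and 29.4 CPM, a log2 difference of -1.03 (SE 0.38). The other tail lines had differences of 0.03 (Slc1a3, SE 0.37) and 0.30 (Aspm, SE 0.37), and Slc1a3+ cells had 193 and 188 CPM against 201 and 171 CPM in total IFE. In the back, Slc1a3+ cells had 21.7, 22.5 and 18.4 CPM against 11.5, 14.5 and 3.70 CPM in total IFE, of which the last is the library that stands apart. The log2 difference was 1.01 (SE 0.33), with no overlap between the gates, and 0.69 without that library.

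**Figure D3:**
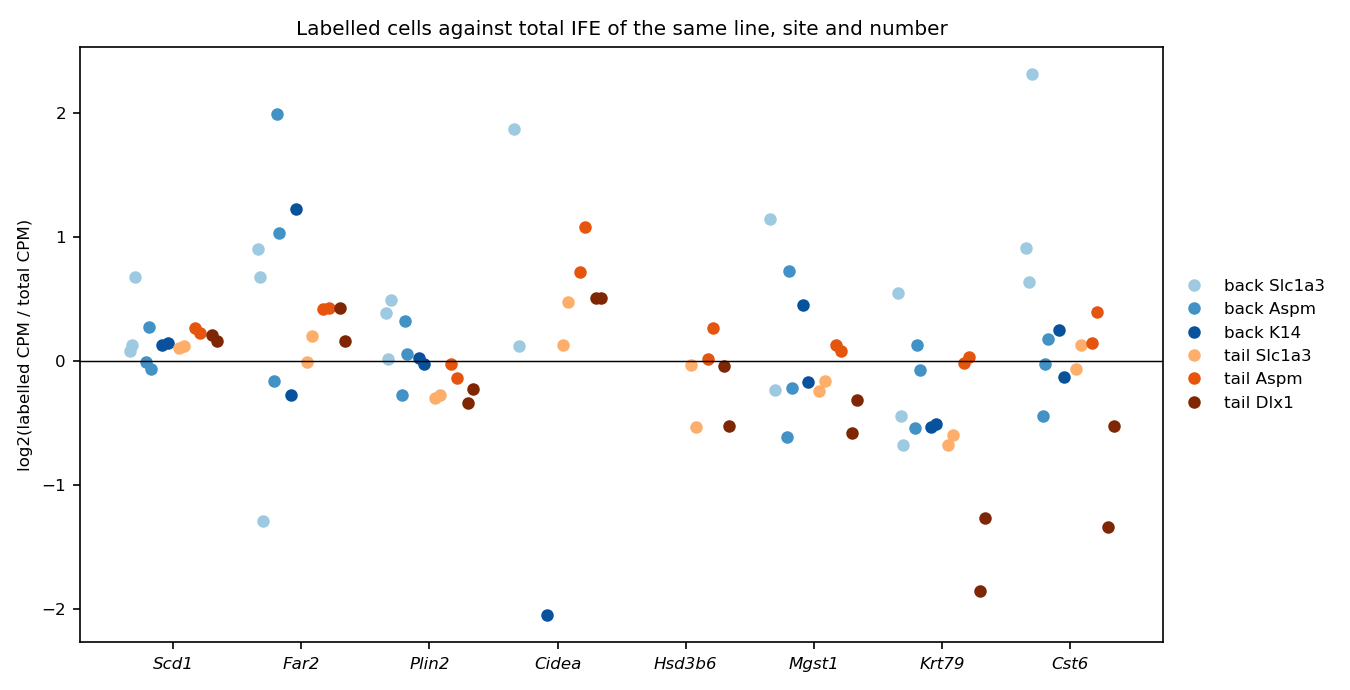
Log2 ratio of labelled over total CPM (vertical axis) for each pair of libraries of 1 line, site and replicate number; colours are site and line, and pairs in which a library had 3 counts or fewer are not drawn, nor are Pparg and Awat2. All 6 tail points lie above 0 for Scd1 (0.11 to 0.26) and Cidea and below 0 for Plin2, and the lowest Krt79 points are the tail Dlx1 pairs.

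The counts of genes past an adjusted p of 0.05 in edgeR's quasi-likelihood test with Benjamini-Hochberg adjustment are given for the 10 genes as description, since their values chose them. All 10 passed the filter on low counts, Hsd3b6 and Cidea through the tail libraries. For labelled cells against total IFE, 0 of 10 passed in the Slc1a3, Aspm and K14 lines in the back, where 0.109%, 0% and 0.00572% of all 17493 genes passed. Likewise 0 of 10 passed in the Slc1a3, Aspm and Dlx1 lines in the tail, where 0.514%, 0.00572% and 0% passed. Counts at an unadjusted p under 0.05 were 2, 0 and 1 of 10 in the back. In the tail they were 1, 0 and 2 of 10. Of all 17493 genes, 988, 382 and 376 in the back and 1004, 423 and 446 in the tail had such a p. DESeq2 called 1 of 10, Krt79 in tail Dlx1+ cells, where it called 34 of all genes. The replicate number as a block pairs gates, which the main fit does not. With it, Krt79 was called lower in tail Dlx1+ cells (81 of all genes called). Cst6 was called higher in back Slc1a3+ cells (62 of all genes called), in a fit that includes the library that stands apart. For total IFE of tail against back, 9 of 10 were called higher (46.2% of all genes were called in either direction). For the Slc1a3 against the Dlx1 line in the tail, 4 of 10 were called higher in total IFE, namely Cidea, Cst6, Hsd3b6 and Far2. Of all 17493 genes, 1.92% were called there in either direction, and 171 genes were called higher. In labelled cells 6 of 10 were called higher, which adds Scd1 and Krt79. There 5.47% of all genes were called in either direction, and 404 genes were called higher. With 1 of the 4 libraries left out, 1 or 2 of 10 were called in total IFE and 1 to 4 of 10 in labelled cells. Gates did not overlap for Cidea and Cst6 (labelled higher) in the back Slc1a3 line, where 4.56% of all genes had the labelled cells wholly higher and 3.35% wholly lower. For both genes 1 of the totals is the library that stands apart. Cidea had 11 counts or fewer in each library, too few to compare gates. In the back Aspm line gates lay apart for 0 of 10 (2.46% and 3.26% of all genes). In the K14 line they did so for Scd1 (higher, 16.9%) and Krt79 (lower, 15.6%), and for Cidea (lower) on 0 to 14 counts, too few to compare. In the tail Slc1a3 line they did so for Cidea (higher; 15.4%) and for Awat2, Plin2, Hsd3b6 and Krt79 (lower; 15.9%), in the Aspm line for Far2 and Cidea (higher; 16.9%) and Awat2 (lower; 18.9%), and in the Dlx1 line for Awat2 and Cidea (higher; 12.7%) and Pparg, Plin2, Mgst1, Krt79 and Cst6 (lower; 15.6%). Awat2 had 33 counts or fewer in each tail library and went in different directions between lines, which leaves its gate differences uncertain. Pparg had 5 counts in tail Dlx1+ replicate 1, so its gate difference there is uncertain too. Slc1a3 and Dlx1 libraries did not overlap for 8 of 10 in total IFE (24.0% of all genes wholly higher) and for 8 of 10 in labelled cells (25.2%). Total IFE of tail and back did not overlap for 9 of 10 (15.6%). The difference of gate effects between sites in the Slc1a3 line called 0 of 10 (0.0915% of all genes). At an unadjusted p under 0.05 it had 0 of 10 and 756 of all genes, and DESeq2 called 0 of 10 and 52 of all genes.

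Across the 12 tail libraries, Scd1, Far2, Cidea and Hsd3b6 varied together. On site-centred log2 CPM, Pearson's r was 0.989 for Scd1 with Far2, 0.979 for Scd1 with Cidea, 0.984 for Far2 with Cidea and 0.981 for Far2 with Hsd3b6. Plin2 was closer to Krt79 (0.831) and Mgst1 (0.808) than to Scd1 (0.339), and Cst6 lay between, with 0.881 for Hsd3b6 and 0.864 for Mgst1. Across the 16 back libraries r was 0.483 for Scd1 with Far2 and 0.831 for Plin2 with Cst6, and without the library that stands apart it was 0.789 and 0.659. Cidea and Hsd3b6 held too few counts there for such a value. These are descriptions, since libraries share lines and animals may be shared, and the 12 tail libraries include the 4 of the Dlx1 line, which lie apart from the other 8 in these genes.

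The genes most like Scd1 and Krt79 were sought among 10010 genes with a mean of at least 5 CPM, by Pearson's r of log2 CPM over 28 libraries after subtracting each site's mean. For Scd1 they were Me1 (0.799), which supplies NADPH for fatty acid synthesis, Rab21 (0.787), Pdk1 (0.786), Acacb (0.779), an acetyl-CoA carboxylase, Wfdc17 (0.776) and Trafd1 (0.768). Without the back library that stands apart, Acacb came first with 0.879, and 2 of these 6 genes were still among the first 6. For Krt79 they included Rab32 (0.861), the keratin Krt17 (0.721), Ndrg2 (0.663) and Nqo1 (0.615). Without that library Rab32 again came first (0.869), Krt17 had 0.726, and Ndrg2 (0.654) and Nqo1 (0.606) fell out of the first 6. The values are descriptive, and the labels do not say which libraries share animals.

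The other genes of these pathways were read from 9 lists of 152 genes, which hold none of the 10, and 138 of them were tested. The lists were chosen with earlier results of these data known. Shares of list genes called, here and below, are therefore description and no independent test, and the p-values of list genes carry the same limit. In total IFE of tail against back (4 against 6 libraries of the Slc1a3 and Aspm lines), 75 rose and 20 fell, 68.8% of those tested against 46.2% of all genes. The median log2 difference was 0.42 over the 138 and -0.03 over all genes.

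Fatty acid synthesis and desaturation had 12 genes higher and 4 lower of 22 tested. Elovl3, a sebaceous elongase, rose from 0.0502 ± 0.0580 CPM (SD, n = 6) to 26.2 ± 5.85 CPM (n = 4, log2 difference 8.74, SE 0.56, edgeR's quasi-likelihood test, Benjamini-Hochberg adjusted p = 1.09e-11). Its back mean lies below the 0.174 CPM that 3 counts per library average there, so the size of this difference is uncertain. Scd2, a close relative of Scd1, rose from 23.9 ± 12.6 to 401 ± 53.5 CPM (log2 4.08, adjusted p = 3.35e-11). The malic enzyme Me1 fell by 1.31 on the log2 scale and the acyl-CoA synthetase Acsl1 fell by 1.12. The cytosolic synthase Fasn rose by 0.49 and did not pass without tail Slc1a3 total replicate 2 or tail Aspm total replicate 1 (adjusted p up to 0.125).

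Wax and triglyceride ester genes had 7 higher and 0 lower of 11 tested. Awat1, a wax synthase related to Awat2, rose from 0.0711 ± 0.123 to 6.96 ± 0.929 CPM (log2 6.70, SE 0.72). Its back mean also lies below the 0.174 CPM of 3 counts per library. Soat1, which esterifies cholesterol, rose by 5.24 on the log2 scale and the triglyceride synthase Dgat2 by 1.36. Among the 12 droplet genes tested, 4 rose and 1 fell: Hilpda, an inhibitor of lipolysis, rose by 1.24, and Pnpla3 fell by 1.11 but did not pass without tail Slc1a3 total replicate 1 (edgeR adjusted p = 0.0501). Pnpla5, a lipase relative, rose from a mean of 0.0142 CPM, which is 2 counts in 6 libraries, to 5.31 CPM.

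PPAR receptors, partners and targets went both ways, with 5 higher and 7 lower of 18 tested. The fatty acid binding protein Fabp5 rose from 17.4 ± 8.48 to 132 ± 15.3 CPM (log2 2.93, adjusted p = 2.51e-10) and the receptor Ppard rose by 0.73. The receptor Ppara fell from 31.3 ± 14.4 to 5.65 ± 2.21 CPM (log2 -2.45, adjusted p = 2.38e-06), and Ucp2, a mitochondrial carrier, fell by 1.80.

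Sterol synthesis and its regulators had 19 higher and 3 lower of 27 tested. Msmo1 rose by 2.20, Mvd by 3.23 and Insig1, which holds the pathway in check, by 1.79. The transcription factors Srebf1 and Srebf2 rose by 0.999 and 0.73. Stard4, a cholesterol carrier, fell by 1.03.

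Of the 8 steroid hormone genes tested, 4 rose and 1 fell: the steroid reductase Srd5a1 rose by 0.75 and Hsd17b11 fell by 2.97. Glutathione enzymes had 10 higher and 1 lower of 16 tested, among them Mgst2 (1.44), a relative of Mgst1, Gsta4 (3.17) and Gsto1 (1.48). Cystatins and their protease targets had 9 higher and 0 lower of 12 tested: Cstb rose by 1.24, the protease Ctsd by 0.84 and the transglutaminase Tgm1 by 4.50. Stfa3 rose by 4.17, but it has near-identical copies. Upper follicle genes had 5 higher and 3 lower of 12 tested, with Krt17 at 0.79 above and Krt80 at -1.44, Lrig1 at -1.49 and Fst at -1.61 below.

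**Figure D4:**
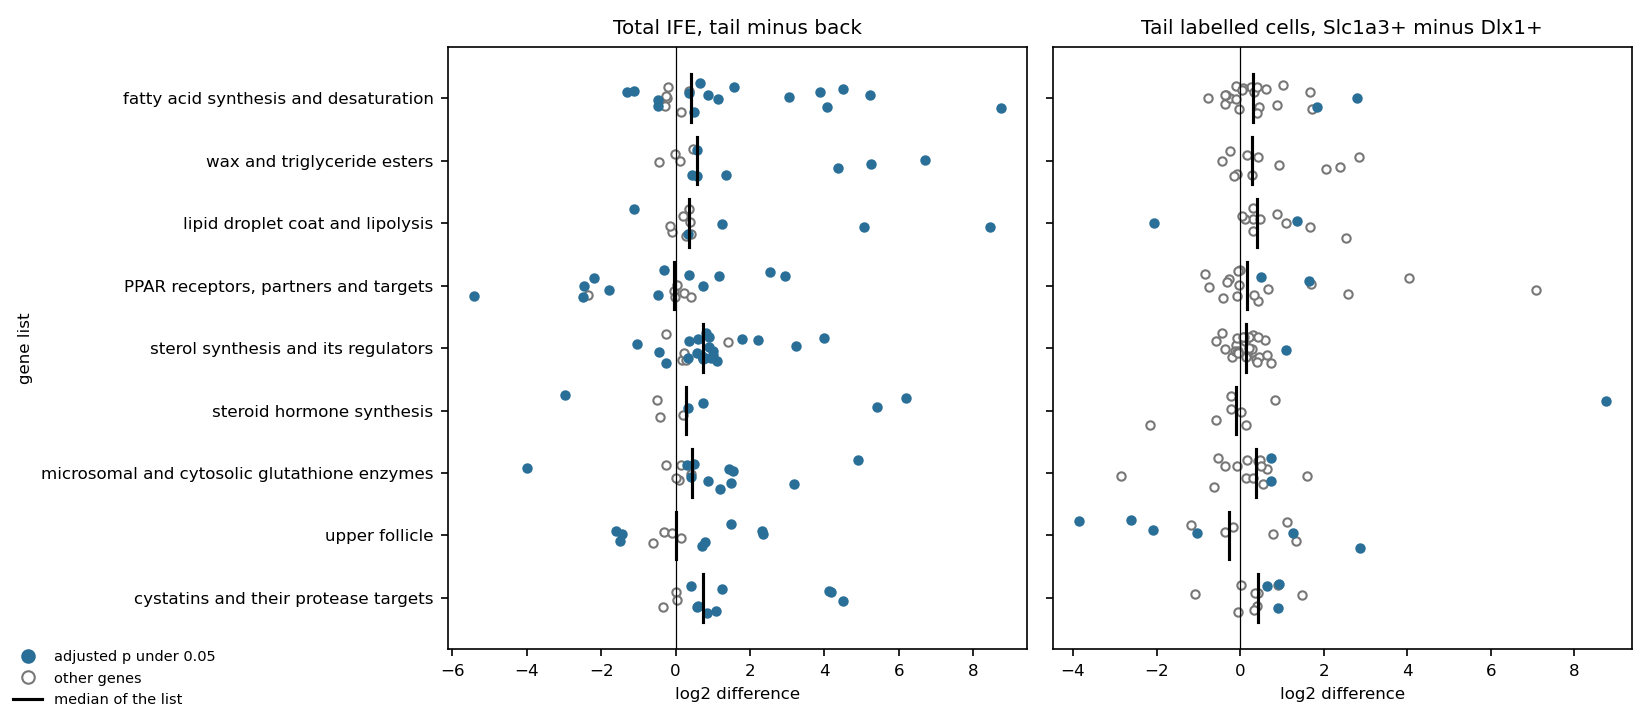
Log2 difference (horizontal axes) of each tested gene of the 9 pathway lists, for total IFE of tail minus back (left) and tail Slc1a3+ minus Dlx1+ cells (right); filled points have an edgeR adjusted p under 0.05, open points do not, and black bars are list medians. Most filled points lie right of 0 on the left, 75 against 20, and 14 against 5 on the right, where the rightmost point is Hsd17b2, a fitted value for a gene with 0 counts in Dlx1+ cells.

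For the Slc1a3 against the Dlx1 line in the tail, 6 of the 138 genes rose and 0 fell in total IFE, 4.35% against 1.92% of all genes. Mgll, which splits monoglycerides, had 156 ± 9.50 CPM in the Slc1a3 line and 57.6 ± 4.56 CPM in the Dlx1 line (SD, n = 2 each; log2 1.44, edgeR's quasi-likelihood test, Benjamini-Hochberg adjusted p = 7.80e-05). It passed without any one of the 4 libraries (adjusted p 0.000697 to 0.0202). The elongase Elovl4 (log2 2.01) passed in 2 of the 4 and was lost without Slc1a3 total replicate 1 or Dlx1 total replicate 1 (adjusted p up to 0.0627). Elovl3 (3.12) and Fabp5 (1.78) were lost without Slc1a3 total replicate 1, Dlx1 total replicate 1 or Dlx1 total replicate 2, with adjusted p up to 0.237 and 0.337. Ctsd (0.67) was lost without either Slc1a3 total or Dlx1 total replicate 2, and Gpx1 (0.75) without Slc1a3 total replicate 1 or either Dlx1 total (adjusted p up to 0.622 and 0.585). Elovl3 and Fabp5 also stand in the sebocyte list.

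In labelled cells of the same lines 14 of the 138 rose and 5 fell, 13.8% against 5.47% of all genes. Mgll rose again (log2 1.35, adjusted p = 3.39e-05), as did Elovl4 (1.85, adjusted p = 0.00421), and both passed without any one of the 4 libraries. Msmo1 rose by 1.10 and the cystatins Cstb and Cst3 by 0.93 and 0.91. Msmo1 and Cst3 were lost without any one of the 4 (adjusted p up to 0.166 and 0.370), and Cstb without Slc1a3+ replicate 1 or Dlx1+ replicate 2 (up to 0.299). Hsd17b2 had 2.44 CPM in Slc1a3+ cells and 0 counts in Dlx1+ cells, at least 19.9-fold higher against a floor of 3 counts per library, and lost its call without any one of the 4 libraries (adjusted p up to 0.302). Upper follicle genes split. Krt17 rose by 1.28 and was lost without either Slc1a3+ library or Dlx1+ replicate 2 (adjusted p up to 0.379). Krt80 (-2.09), Fst (-3.86) and Lrig1 (-2.61) fell, and these 3 passed without any one of the 4 libraries.

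For labelled cells against total IFE, 0 of the 138 genes rose and 6 fell in the tail Slc1a3 line (4.35% against 0.514% of all genes). In the other 5 comparisons edgeR called 0 of 138 in the main fit, which leaves out the pairing of gates by replicate number. At an unadjusted p under 0.05 there were 14, 5 and 7 of the 138 in the back Slc1a3, Aspm and K14 lines. In the tail Aspm and Dlx1 lines there were 0 and 17. Of all 17493 genes there were 988, 382, 376, 423 and 446 in the same order. DESeq2 called 2, 0, 1, 0 and 3 of the 138, and 43, 2, 12, 5 and 34 of all genes. Krt80 fell from 170.3 ± 8.73 to 39.3 ± 5.74 CPM (log2 -2.12, SE 0.18; edgeR's quasi-likelihood test, Benjamini-Hochberg adjusted p = 2.24e-07), and Fst (-4.14) and Lrig1 (-2.98) also fell; these 3 passed without any one of the 4 libraries. Gstm5 (-1.77) was lost without Slc1a3 total replicate 1 or Slc1a3+ replicate 2, Aldh3a1 (-1.45) without either Slc1a3+ library or Slc1a3 total replicate 1, and Ucp2 (-1.26) without any one of the 4 (adjusted p up to 0.122, 0.369 and 0.391). Of the upper follicle list, 4 of 12 fell in the tail Slc1a3 line and 7 of 12 with the replicate block, while in the tail Dlx1 line 0 of 12 passed (9 at an unadjusted p under 0.05, 2 by DESeq2) and 6 of 12 fell with the block. The block also gave 5 lower in back Slc1a3+ cells, 2 in K14+ cells and 1 in tail Aspm+ cells. Outside the upper follicle list, for the same 5 comparisons, it called 1 fatty acid gene higher in back Slc1a3+ cells. It also called 1 glutathione enzyme gene lower in tail Dlx1+ cells. The part of upper follicle cells in the gate difference of Krt79 was not tested.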

How the data were processed

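Per the labels, poly(A) RNA was made into non-directional libraries. The deposited files hold 1 whole-number count per gene and library, made by the authors. The submitters' processing notes name Trim Galore 0.6.0, cutadapt, FastQC, STAR 2.7.0e and DESeq2 1.26.0, and the builds GRCm38 and mm10; the counting program, annotation and strand setting are not given in the sources used here. All 55536 identifiers matched GENCODE M21.

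From the deposited counts, CPM were computed with edgeR's TMM scaling. Genes kept by filterByExpr (minimum count 10), 17493 in all, were fitted with edgeR 4.0.16's quasi-likelihood test (robust, 1 mean per group, 12 groups, 28 libraries, 16 residual degrees of freedom, R 4.3.3), Benjamini-Hochberg adjusted over all genes, in 10 comparisons. Site comparisons average the Slc1a3 and Aspm lines. The 10 genes, the 9 pathway lists and the 9 marker lists were chosen with earlier results of these data known. List genes named are those with an adjusted p under 0.05, up to 8 per list and comparison in order of p; Stard4, Fasn and Srebf2 fall outside this rule and were chosen after their values were seen. Genes like Scd1 and Krt79 are the 6 with the highest r. Some genes that meet these rules are not reported here. Alternatives were DESeq2 1.42.0 (test and size factors), no filter, CPM by library total, a replicate block and each library left out. Libraries with the same number, line and site deviated together in 14 of 14 pairs (correlation of deviations 0.213 to 0.653 over 10688 genes; with 2 replicates a group both pairs give 1 value, so 10 values are distinct), so the numbers pair gates. The code was tested on simulated data.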

Additional observations from a re-analysis of the deposited data

Results flagged for a closer look

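The test of the gate effect between sites in the Slc1a3 line called 1 gene of the lists. Krt80, a keratin of the upper follicle list, had a log2 difference of labelled against total cells that was lower in tail than in back skin by -1.96 (edgeR's quasi-likelihood test, Benjamini-Hochberg adjusted p = 4.82e-05), and it still passed whichever of the 10 libraries was left out (adjusted p 5.63e-05 to 0.00179). Krt79 had -0.48 (SE 0.39) in the same contrast, as a description.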

How the results depend on the processing

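Numbers of genes passing moved with the test more than the levels of the 10 genes did. The DESeq2 test called 43 genes in place of 19 for back Slc1a3+ cells against total, 2 in place of 0 for Aspm+, 12 in place of 1 for K14+, 195 in place of 90 for tail Slc1a3+, 5 in place of 1 for tail Aspm+ and 34 in place of 0 for tail Dlx1+ cells. It called 1131 in place of 335 for the tail totals of the Slc1a3 against the Dlx1 line, 1855 in place of 957 for their labelled cells and 52 in place of 16 for the difference between sites. With no filter these counts were 135, 27, 42, 276, 26, 95, 785 and 135, leaving out labelled Slc1a3+ against Dlx1+ cells, which stayed within 1.5 times. At an unadjusted p under 0.05, edgeR gave 382 genes for back Aspm+ and 446 for tail Dlx1+ cells, the comparisons with 0. The replicate block, which pairs gates, gave 62 for back Slc1a3+, 18 for K14+, 261 for tail Slc1a3+, 6 for tail Aspm+, 81 for tail Dlx1+ cells and 83 for the difference between sites.

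With each library left out in turn, the counts were 9 to 19 for back Slc1a3+, 0 to 0 for back Aspm+, 0 to 1 for K14+, 29 to 57 for tail Slc1a3+, 0 to 1 for tail Aspm+, 0 to 2 for tail Dlx1+, 6498 to 8642 for tail against back, 5 to 201 for the tail totals, 67 to 574 for the tail labelled cells and 7 to 20 for the difference between sites. Without the back Slc1a3 total replicate 4, an alternative chosen after seeing the data where that library is not in the groups compared, counts were 134 for tail Slc1a3+, 15 for tail Dlx1+, 1039 for the tail totals and 1875 for the tail labelled cells. Of the first 6 genes like Scd1, 3 were shared when ranked by Spearman's rho and 2 without that library. The causes were not tested. No direction reversed among the genes called. Over all settings, calls of list genes held in 1673 repeats and were lost in 196, and differences of the 10 genes stayed within 1 SE in 935 repeats and moved further in 62. Groups of 2 or 3 libraries, and levels near 1 CPM for Pparg and Awat2, limit what these data resolve.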
